A study of Jaculus jaculus and Mus musculus with 24 samples.

Results

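Corin, Stmn4, Gcg and Tuba8 are 4 of the 17641 measured features, selected on their ratio of hindfoot to forelimb muscle, which was far higher in jerboa than in mouse. They were chosen by the read counts of these same libraries, and no numeric threshold was stated. The foot to forelimb values of these genes are therefore a description and carry no test. Each gene was found by the mouse transcript identifier that the mouse annotation pairs with its symbol, and all 4 passed the filter on low counts. RNA was sequenced from muscle inside the hindfoot and from the forelimb flexor digitorum superficialis (FDS) of Jaculus jaculus, the lesser Egyptian jerboa, a rodent that hops on its hindlimbs and loses its hindfoot muscle after birth, and of the laboratory mouse (Mus musculus), which keeps it. Newborn (P0) and 3-day-old (P3) animals of both species were used, for 3 libraries in each of 8 groups and 24 in all. The treatment label is "normal" in all 8 groups, and no strain or genotype is given. Foot muscle was taken from sections and FDS muscle by dissection, so tissue and way of sampling cannot be told apart.

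Corin is a membrane serine protease that cuts pro-atrial natriuretic peptide into its active form, which lowers blood pressure through the receptor Npr1 and cyclic GMP. It is best known from the heart and from the dermal papilla of hair follicles. Stmn4 is a stathmin, a protein that binds tubulin dimers and favours the loss of microtubules, and is known from neurons. Tuba8 is an alpha tubulin, one of the subunits of which microtubules are built, and is known from striated muscle and testis. Gcg encodes proglucagon, which the convertase Pcsk2 cuts to glucagon in the pancreatic islet and Pcsk1 cuts to glucagon-like peptides in the gut.

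In the mouse annotation (GENCODE M21, GRCm38) Corin (ENSMUST00000005352) lies on chromosome 5 at 72300025 to 72504473 on the minus strand, with 22 exons. Stmn4 (ENSMUST00000074523) lies on chromosome 14 at 66344296 to 66361680 on the plus strand, with 6 exons. Gcg (ENSMUST00000102733) lies on chromosome 2 at 62474530 to 62483650 on the minus strand, with 6 exons. Tuba8 (ENSMUST00000032233) lies on chromosome 6 at 121210696 to 121226854 on the plus strand, with 5 exons. Antisense genes overlap Corin (Gm20647) and Tuba8 (Gm15856) and were not among the measured features.

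Alpha tubulins are near copies of one another, so stretches that mouse Tuba8 shares with Tuba3a and Tuba4a are shown, because reads from them could be counted for either gene. Each is the longest identical run between the coding sequence of Tuba8 and that of the named gene, in capitals, with 12 bases of Tuba8 on either side in lower case, 5′ to 3′ on the coding strand:
Tuba8 with Tuba3a: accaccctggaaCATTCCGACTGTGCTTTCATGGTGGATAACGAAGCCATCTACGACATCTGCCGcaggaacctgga
Tuba8 with Tuba4a: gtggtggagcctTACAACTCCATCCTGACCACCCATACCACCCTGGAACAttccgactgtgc
The runs are 53 bases with Tuba3a and 38 with Tuba4a, in a coding sequence of 1347 bases. Of the 2214 windows of 50 bases in the Tuba8 transcript, 4 (0.181%) occur in another annotated gene, Tuba3a or Tuba3b. No such window of Corin (of 4813), Stmn4 (of 1254) or Gcg (of 1039) does. The longest run that Stmn4 shares with Stmn2 is 18 bases, and with Stmn1 or Stmn3 it is 17. These are mouse sequences, and the jerboa sequences were not used here.

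Libraries held 16.7 to 54.7 M counted reads. Levels are read counts scaled to the normalised library size (CPM), and 3 reads, the most that a count of 0 allows, correspond to 0.0535 to 0.192 CPM by library. This floor and the intervals given below cover counting error only. Levels are compared within a species, because gene models and lengths differ between the genomes. Whether libraries of 1 group were made from different animals is not stated in the labels, and the p-values then measure only a spread between libraries that may be technical. Markers of skeletal muscle fibres were present in all groups, with all 12 genes of that list detected. At P0 their summed level was 48100 to 53100 CPM in the foot of jerboa and 82300 to 94500 CPM in its forelimb. At P3 it was 34100 to 36600 and 65300 to 73400 CPM. In mouse foot it was 33900 to 46600 CPM at P0 and 44100 to 47300 CPM at P3, against 74000 to 84400 and 71300 to 77400 CPM in mouse forelimb. In bulk tissue fewer cells of a type and less RNA per cell cannot be told apart.

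Corin gave 1975 reads over the 3 libraries of jerboa foot at P0 and 4999 at P3, against 100 and 65 in jerboa forelimb. Its levels in jerboa foot were 45.7, 39.2 and 31.1 CPM at P0 and 67.7, 60.5 and 54.1 CPM at P3. In jerboa forelimb they were 1.17, 1.52 and 0.804 CPM at P0 and 0.921, 0.611 and 0.608 CPM at P3. No jerboa forelimb library came near a jerboa foot library. Mouse Corin was at 11.7, 15.0 and 12.9 CPM in foot and 13.8, 14.8 and 11.2 CPM in forelimb at P0, which overlap. At P3 mouse Corin was at 19.2, 21.5 and 17.6 CPM in foot and 9.41, 9.01 and 9.64 CPM in forelimb, with every foot library above every forelimb library. The log2 ratio of foot to forelimb for Corin was 5.07 ± 0.19 at P0 and 6.39 ± 0.20 at P3 in jerboa (estimate ± SE, 3 libraries a group). In mouse it was -0.004 ± 0.141 at P0 and 1.055 ± 0.137 at P3.

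Stmn4 was at or near the limit of detection in jerboa forelimb and well above it in jerboa foot. Its levels in jerboa foot were 9.61, 20.2 and 11.1 CPM at P0 and 2.09, 5.36 and 4.13 CPM at P3. In jerboa forelimb it gave 5, 7 and 6 reads at P0 and 3, 2 and 0 reads at P3, the last values at or under the floor. The spread in jerboa foot was wide, with a coefficient of variation of 42.0% at P0 and 42.8% at P3. At P0 the second library was well above the other two, and at P3 the first was below them. In mouse the P0 levels of Stmn4 overlapped, at 2.97, 2.82 and 2.42 CPM in foot and 2.96, 2.99 and 2.94 CPM in forelimb. At P3 the mouse order was the opposite of that in jerboa, with 0.726, 0.499 and 0.952 CPM in foot and 5.84, 5.61 and 4.58 CPM in forelimb. The log2 ratio of foot to forelimb for Stmn4 was 6.03 ± 0.40 at P0 and 6.02 ± 0.54 at P3 in jerboa, the latter over 5 forelimb reads in all, and -0.12 ± 0.28 and -2.89 ± 0.31 in mouse.

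Gcg was present in both jerboa muscles and higher in foot. Jerboa foot libraries were at 18.5, 13.0 and 9.91 CPM at P0 and 15.3, 13.5 and 9.71 CPM at P3. Jerboa forelimb libraries were at 1.72, 2.60 and 1.28 CPM at P0 and 0.983, 1.32 and 1.32 CPM at P3. All jerboa foot libraries were above all jerboa forelimb libraries at the same age, and the log2 ratio for Gcg was 2.90 ± 0.27 at P0 and 3.42 ± 0.28 at P3. In mouse Gcg was close to the limit of detection. Mouse foot gave 5, 4 and 2 reads at P0 and 0, 3 and 5 reads at P3, and mouse forelimb gave 3, 8 and 4 reads at P0. At that depth no difference of Gcg between mouse foot and forelimb was detectable at P0. Mouse forelimb at P3 gave 35, 21 and 34 Gcg reads, or 0.715, 0.436 and 0.610 CPM, all above the mouse foot libraries of that age.

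Tuba8 differed modestly between the jerboa muscles and far more between the mouse muscles at P3. Its levels in jerboa foot were 3.15, 3.29 and 3.26 CPM at P0 and 3.03, 2.47 and 2.69 CPM at P3. Jerboa forelimb was at 1.28, 1.30 and 2.20 CPM at P0 and 1.44, 1.93 and 1.11 CPM at P3. Foot was higher without overlap at both ages, with a log2 ratio for Tuba8 of 0.99 ± 0.25 and 0.87 ± 0.24. In mouse Tuba8 was lower in foot, with 0.188, 0.192 and 0.503 CPM against 0.859, 1.17 and 1.39 CPM in forelimb at P0. At P3 mouse foot was at 0.377, 0.392 and 0.576 CPM and mouse forelimb at 23.5, 29.9 and 28.7 CPM. The log2 ratio for Tuba8 in mouse was -1.96 ± 0.34 at P0 and -5.92 ± 0.24 at P3, so the difference between the species at P3 lay mostly in the mouse forelimb.

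**Figure D1:**
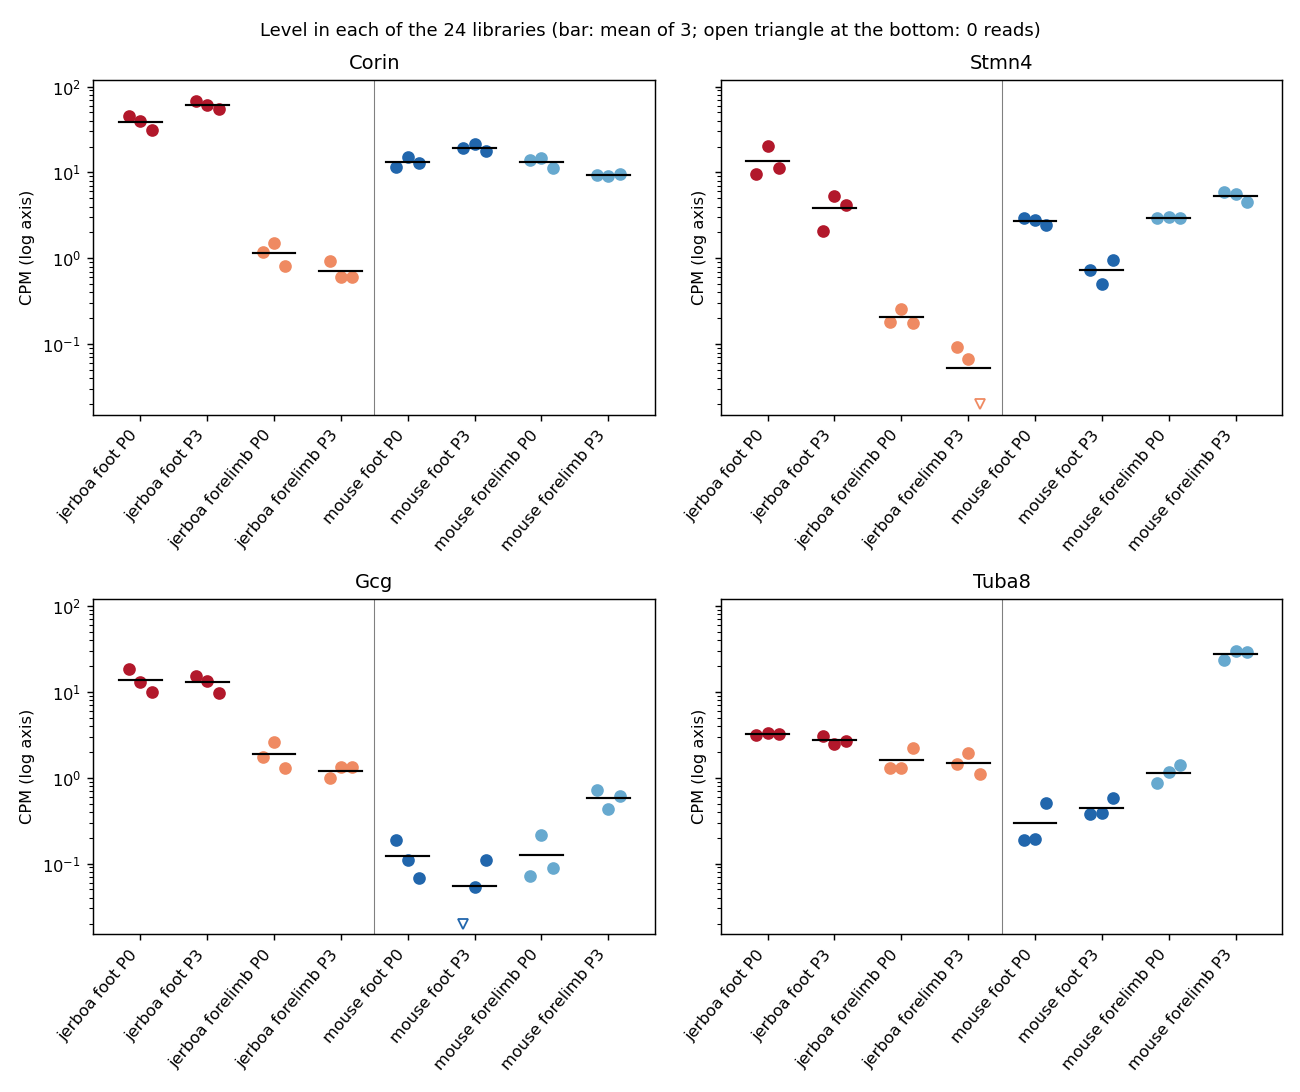
Level of each gene in each of the 24 libraries, in CPM on a log axis, by species, muscle and age; bars are means of 3 libraries and open triangles are libraries with 0 reads. Corin and Stmn4 are far apart between the jerboa muscles, and the highest Tuba8 levels (23.5 to 29.9 CPM) are in mouse forelimb at P3.

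The working description of these genes as raised in jerboa foot only held in part. Corin, Stmn4 and Gcg were many times higher in jerboa foot than in jerboa forelimb at both ages. Corin was also higher in mouse foot than in mouse forelimb at P3, and the value that chose Tuba8 came mostly from its level in mouse forelimb. The difference between the species in the log2 ratio was 5.08 for Corin, 6.15 for Stmn4, 2.94 for Gcg and 2.96 for Tuba8 at P0. At P3 it was 5.34 for Corin, 8.92 for Stmn4, 6.69 for Gcg and 6.79 for Tuba8. Among the 14448 genes tested, ordered from the highest of these differences, Corin stood at place 27 at P0 and 39 at P3, Stmn4 at 8 and 2, Gcg at 214 and 19, and Tuba8 at 212 and 16. These places follow from how the genes were picked. Of all genes tested, 48.6% at P0 and 49.0% at P3 had a ratio that differed between the species at an adjusted p under 0.05. For all 4 genes the jerboa foot libraries lay above the forelimb libraries at both ages, as did those of 30.9% of all genes at P0 and 37.2% at P3. In mouse at P0 the foot libraries of Tuba8 alone lay below those of forelimb, as did 30.4% of all genes. At P3 Stmn4, Gcg and Tuba8 lay below, with 32.1% of all genes, and Corin above, with 35.8%. Nothing is read from these shares, since the genes were picked on this contrast.

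**Figure D2:**
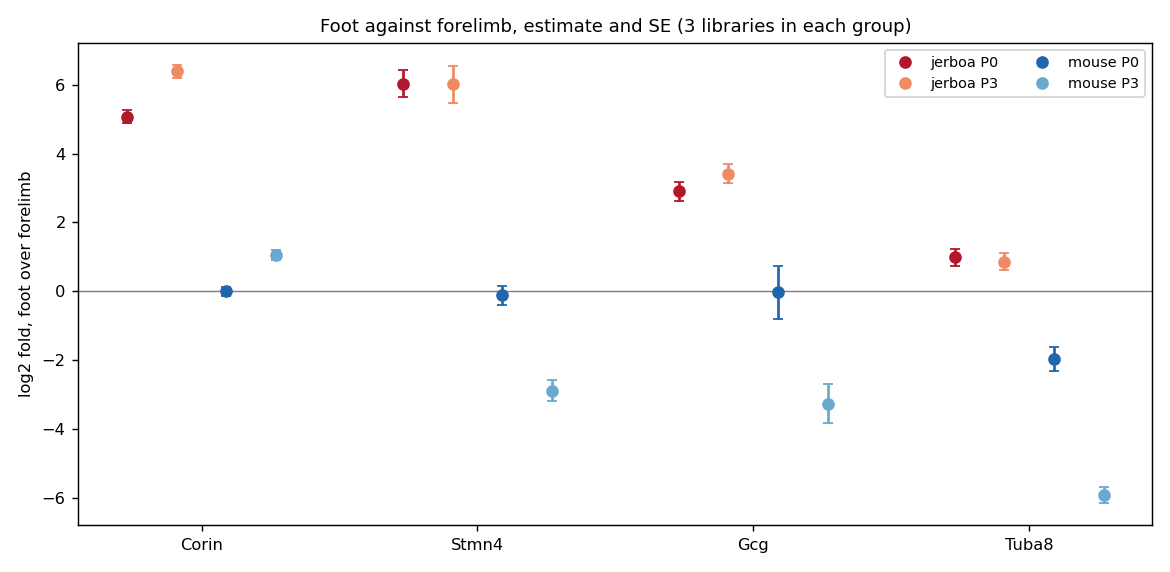
Log2 fold of foot over forelimb for each gene in jerboa and mouse at P0 and P3 (points are estimates and bars are SE, 3 libraries a group). Corin and Stmn4 lie above 5 in both jerboa comparisons, Tuba8 lies near 1 in jerboa, and Stmn4, Gcg and Tuba8 lie below -2 in mouse at P3.

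The order of the group levels differed from gene to gene. Jerboa Corin ran from foot P3 (60.7 CPM) through foot P0 (38.7 CPM) to forelimb P0 (1.17 CPM) and forelimb P3 (0.713 CPM), and only the last neighbours overlapped. Jerboa Stmn4 ran from foot P0 (13.7 CPM) through foot P3 (3.86 CPM) to forelimb P0 (0.207 CPM) and forelimb P3 (0.0533 CPM), with no overlap between neighbours. Jerboa Gcg had overlapping ages within each muscle, at 13.8 and 12.9 CPM in foot and 1.87 and 1.21 CPM in forelimb. Jerboa Tuba8 ran from foot P0 (3.23 CPM) through foot P3 (2.73 CPM) to forelimb P0 (1.60 CPM) and forelimb P3 (1.495 CPM), of which the forelimb ages overlapped. Mouse Corin was highest in foot at P3, whereas mouse Stmn4, Gcg and Tuba8 were each highest in forelimb at P3, where every library was above every other mouse library of that gene.

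P3 against P0 within a muscle was not the contrast on which the genes were picked, so it was tested. It shares libraries with the ratios that were. Those ratios were formed from the foot and forelimb levels at each age, so the p-values are not independent of the choice of genes. Of the 16 such comparisons, 8 had an adjusted p under 0.05 over all 14448 genes. The share of all genes that passed was 47.3% in jerboa foot, 43.2% in jerboa forelimb, 57.6% in mouse foot and 51.4% in mouse forelimb, against 2, 0, 2 and 4 of these 4 genes. By muscle the counts are too small to set against those shares. In mouse forelimb 3 of the calls were on Stmn4, Gcg and Tuba8, whose levels there at P3 entered the choice of these genes, so their changes there are given as a description with no test. Groups that did not overlap were also common, at 29.4% of all genes upward and 21.4% downward in jerboa foot, 32.0% and 31.4% in mouse foot, and 32.2% and 30.7% in mouse forelimb. P0 and P3 files also differ in a label on whether reads were trimmed, so age and that label cannot be told apart.

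Corin rose with age in foot of both species. In jerboa foot it rose by 0.65 ± 0.13 on the log2 scale (adjusted p 0.00027) and in mouse foot by 0.56 ± 0.14 (adjusted p 0.0013), with all P3 libraries above all P0 libraries in both. In mouse forelimb Corin fell by 0.50 ± 0.14 (adjusted p 0.0042), again without overlap. In jerboa forelimb the log2 value for Corin was -0.67 ± 0.30 over 100 and 65 reads, and it did not pass (adjusted p 0.077). That call changed with the tool and the libraries, with an adjusted p of 0.028 in DESeq2 and 0.26 in limma voom. Without the third library of jerboa forelimb at P0 it was -0.90 (adjusted p 0.027), and without the first at P3 it was -0.91 (adjusted p 0.045).

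Stmn4 fell with age in the foot of both species. It fell by 1.83 ± 0.27 in jerboa foot (adjusted p 5.5e-06) and by 1.93 ± 0.33 in mouse foot (adjusted p 1.9e-05) on the log2 scale. In mouse forelimb the value was 0.85 ± 0.26. The 3 libraries of each age did not overlap in any of these. In jerboa forelimb the value for Stmn4 was -1.82 ± 0.93 over 18 and 5 reads (adjusted p 0.12, and 0.036 in DESeq2). The foot levels of both species entered the ratios on which Stmn4 was picked, so its p-values are not independent of that choice.

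Gcg and Tuba8 did not pass in jerboa foot, jerboa forelimb or mouse foot, and whether their values differ between muscles or species was not tested. In mouse forelimb Gcg had a log2 value of 2.24 ± 0.50, from 15 reads in all at P0 to 90 at P3. Tuba8 had 4.58 ± 0.21 there, from a mean of 1.14 ± 0.269 CPM to 27.4 ± 3.41 CPM (SD, n = 3). In jerboa foot the log2 values were -0.10 ± 0.23 for Gcg (adjusted p 0.76) and -0.24 ± 0.23 for Tuba8 (adjusted p 0.42). In jerboa forelimb they were -0.62 ± 0.32 for Gcg (adjusted p 0.12) and -0.11 ± 0.25 for Tuba8 (adjusted p 0.75). In mouse foot they were -0.99 ± 0.86 for Gcg over 11 and 8 reads (adjusted p 0.34) and 0.62 ± 0.40 for Tuba8 (adjusted p 0.19). Without the third mouse foot library at P0, which had the highest Tuba8 level of its group, the last value was 1.22 (adjusted p 0.032).

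**Figure D3:**
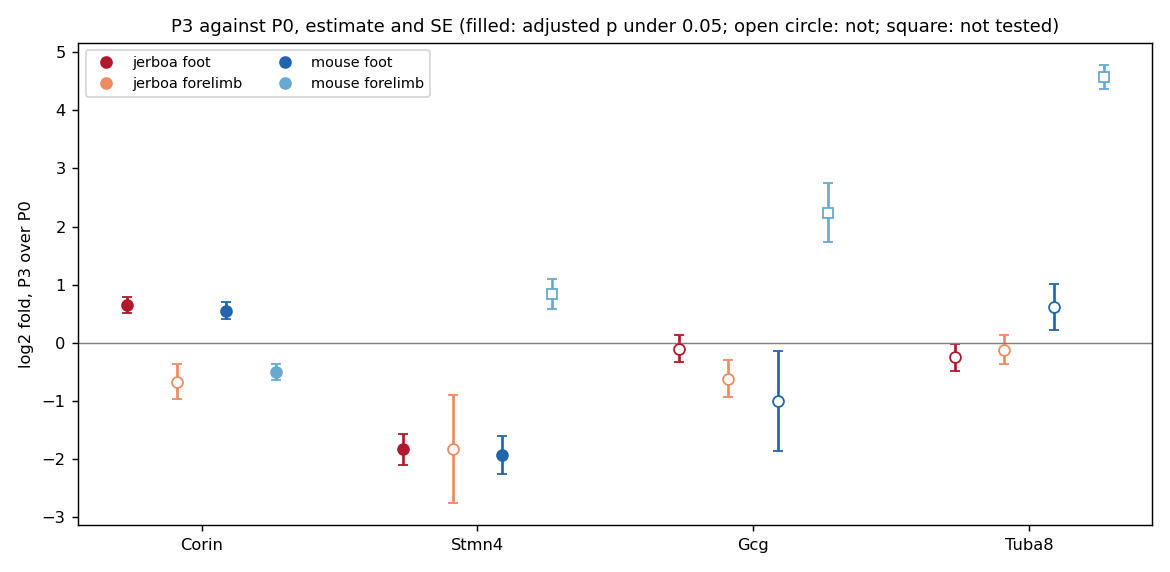
Log2 fold of P3 over P0 for each gene in the 4 muscles (points are estimates and bars are SE, 3 libraries a group; filled points passed at an adjusted p under 0.05, and squares are not tested). Corin lies above 0 in both feet, Stmn4 lies below 0 in both feet, and Tuba8 in mouse forelimb lies at 4.58.

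The genes that work with Corin differed between foot and forelimb in both directions. Of 14 measured genes of the natriuretic peptide system, jerboa foot exceeded forelimb for 5 and fell below it for 7 at P0, and for 5 and 6 at P3, where 65.9% and 67.9% of all genes passed. Their median log2 ratio was -0.14 at P0 and -1.04 at P3 (all genes -0.01 and 0.04). In mouse 5 were higher and 4 lower at P0 and 4 higher and 5 lower at P3, where 59.0% and 52.5% of all genes passed. Nppa, which encodes the atrial peptide that Corin cuts, gave 0 reads in jerboa foot at both ages, 0 in jerboa forelimb at P0 and 2 at P3. Furin, a convertase that can cut other natriuretic peptides, was higher in jerboa foot by 0.90 ± 0.07 at P0 and 0.67 ± 0.07 at P3 on the log2 scale. Pcsk6, the convertase that activates Corin itself, was lower in jerboa foot, with log2 ratios of -1.38 ± 0.10 and -1.61 ± 0.10. In mouse it was at 0.12 ± 0.09 at P0, which did not pass (adjusted p 0.24), and -0.32 ± 0.09 at P3, and it differed between the species at both ages (adjusted p 3.1e-09 and 8.6e-09).

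The receptors Npr1 and Npr3 and the cyclic GMP effectors Prkg1 and Pde5a were lower in jerboa foot at both ages. Npr2, Prkg2 and Pde9a of the same list had higher mean levels in jerboa foot than in jerboa forelimb. At P0 these were 232 and 176 CPM for Npr2, 2.69 and 0.968 CPM for Prkg2, and 10.5 and 7.27 CPM for Pde9a. At P3 they were 223 and 141, 4.14 and 1.18, and 11.0 and 5.29 CPM. Npr1, the receptor of the atrial peptide, had log2 ratios of -1.25 ± 0.11 and -1.02 ± 0.10 in jerboa at P0 and P3. In mouse it had -0.65 ± 0.10 and -0.66 ± 0.10. Npr3, which clears the peptides, had -1.02 ± 0.12 and -2.38 ± 0.12 in jerboa and -0.33 ± 0.11 and -0.42 ± 0.10 in mouse. The mouse value of Npr3 at P0 was lost without the first foot library or the third forelimb library of that group (log2 -0.22 and -0.25, adjusted p 0.08 and 0.076). Npr3 also fell with age in jerboa foot, by 0.98 ± 0.13 (adjusted p 1.2e-06), and rose in jerboa forelimb, mouse foot and mouse forelimb by 0.37 ± 0.11, 0.44 ± 0.11 and 0.53 ± 0.10. The kinase Prkg1, which cyclic GMP activates, had -1.81 ± 0.13 and -1.91 ± 0.12 in jerboa, and Pde5a, which breaks cyclic GMP down, had -1.64 ± 0.10 and -1.67 ± 0.10. Mean levels of Pde5a in mouse foot and forelimb were 26.5 and 39.8 CPM at P0 and 35.0 and 43.2 CPM at P3. Those of Prkg1 in mouse were 27.2 and 46.5 CPM at P0 and 63.5 and 62.1 CPM at P3.

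Among 9 tested relatives and inhibitors of the transmembrane serine proteases (of 17 in the files), the jerboa foot was higher for 5 and lower for 2 at P0, and for 3 and 2 at P3 (65.9% and 67.9% of all genes passed). In mouse 2 were higher and 0 lower at P0 and 1 was higher and 3 lower at P3 (59.0% and 52.5% of all genes). Those called in mouse went from 2 to 4 at P0 without the third forelimb library of that age, and from 4 to 7 at P3 without the first foot library at P0. Hpn, or hepsin, a protease of the same family, was higher in jerboa foot by 1.10 ± 0.14 at P0 and 1.89 ± 0.16 at P3 on the log2 scale. In mouse its log2 ratio was -0.42 ± 0.26 at P0 (adjusted p 0.18) and -1.42 ± 0.21 at P3. The species differed in this ratio at both ages (adjusted p 0.00017 and 2.1e-10). With age Hpn fell in jerboa foot by 0.72 ± 0.14 and in jerboa forelimb by 1.51 ± 0.16 and rose in mouse forelimb by 1.03 ± 0.21, and in mouse foot it was at 0.03 ± 0.27 (adjusted p 0.95). In jerboa foot Corin rose and Hpn fell over the same days.

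Stmn2, the stathmin of growing axons, had the ratios nearest to those of Stmn4 among its 3 relatives. Its libraries in jerboa foot were at 4.64, 7.10 and 3.20 CPM at P0, against 3.04, 2.42 and 0.983 CPM in forelimb. The log2 ratio for Stmn2 was 1.25 ± 0.34 (adjusted p 0.0021) at P0 and 1.18 ± 0.35 (adjusted p 0.0052) at P3 in jerboa. In mouse it was -1.21 ± 0.31 (adjusted p 0.0018) and -2.77 ± 0.31 (adjusted p 7.7e-08). The species differed by 2.46 ± 0.46 and 3.95 ± 0.47 (adjusted p 9.4e-05 and 2e-07). With age Stmn2 rose in mouse forelimb by 0.81 ± 0.28 (adjusted p 0.017), and in jerboa foot and mouse foot it was at -0.73 ± 0.33 and -0.75 ± 0.35 (adjusted p 0.07 in both). These calls depended on the fit. The mouse forelimb call was lost without library 2 or library 3 of that group at P0 or library 2 at P3 (adjusted p 0.056, 0.067 and 0.06). Jerboa foot passed in DESeq2 (adjusted p 0.049) and mouse foot with the mouse libraries alone (adjusted p 0.013), and both passed when only the 6 libraries compared were fitted (adjusted p 0.045 and 0.039).

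Stmn1, the stathmin of dividing cells, was higher in foot in all 4 comparisons, by 0.61 ± 0.07 and 0.34 ± 0.07 in jerboa and 0.52 ± 0.08 and 0.44 ± 0.08 in mouse on the log2 scale. It fell with age in mouse foot by 0.50 ± 0.08 and in mouse forelimb by 0.42 ± 0.08, and rose in jerboa forelimb by 0.25 ± 0.07, which was lost without the third library of that group at P0 (0.17, adjusted p 0.067). Stmn3 had log2 ratios of -1.19 ± 0.50, -0.98 ± 0.38 and -1.51 ± 0.55 in jerboa P0, jerboa P3 and mouse P3 (adjusted p 0.038, 0.025 and 0.023). DESeq2 called none of these (adjusted p 0.12, 0.089 and 0.07), and in mouse at P0 Stmn3 did not pass (0.79 ± 0.49, adjusted p 0.18). Of the 3 stathmins, the jerboa foot had 2 higher and 1 lower at each age.

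All 4 tested alpha tubulins were higher in the jerboa foot at P0 (median log2 ratio 0.50), and 1 was at P3, beside 65.9% and 67.9% of all genes. In mouse 0 were higher and 1 lower at P0, and 2 were higher and 1 lower at P3, beside 59.0% and 52.5%. The call at P3 in jerboa became 2 without the second forelimb library of that age, and the call at P0 in mouse became 2 without the second foot or the first forelimb library of that age. Tuba4a, the alpha tubulin of mature muscle and nerve, had log2 ratios of 0.50 ± 0.12 and -0.19 ± 0.12 in jerboa, of which the second did not pass (adjusted p 0.18). In mouse it had -0.79 ± 0.12 and -1.34 ± 0.13, and the species differed by 1.29 ± 0.18 and 1.15 ± 0.18 (adjusted p 1.9e-06 and 7.4e-06). Tuba1c was higher in jerboa foot by 0.34 ± 0.09 and 0.30 ± 0.09 and in mouse foot at P3 by 0.50 ± 0.09. With age Tuba4a rose in mouse forelimb by 0.86 ± 0.12 and fell in jerboa foot by 0.82 ± 0.12.

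Per kilobase of transcript Tuba8 was a minor alpha tubulin of mouse muscle. Its share of the summed level of the 7 measured alpha tubulins was 0.143% ± 0.0450 in forelimb at P0 and 3.24% ± 0.288 at P3 (SD, n = 3). In mouse foot it was 0.0385% ± 0.0238 and 0.0570% ± 0.0125. Tuba4a rose from 27.1% ± 2.48 to 47.3% ± 2.12 of that sum in mouse forelimb, and Tuba1a went from 66.6% ± 2.51 to 44.3% ± 2.06. Tuba3a, which shares the 53-base run with Tuba8, was at most 0.00683% ± 0.00696 of the sum in any mouse group. The alpha tubulin Tuba1b was not among the measured features, so the sum lacks it and none of these is a share of all alpha tubulin.

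Tubulins of the beta, gamma, delta and epsilon classes and the proteins that fold and modify tubulin moved in both directions. Of 10 tested tubulins of these classes, the jerboa foot had 4 higher and 3 lower at P0 and 3 of each at P3 (65.9% and 67.9% of all genes passed). In mouse 8 were higher and 0 lower at P0 and 5 higher and 2 lower at P3 (59.0% and 52.5%). Tubb2a was higher in jerboa foot by 1.44 ± 0.10 at P0 and 0.55 ± 0.10 at P3, and Tubb3, the neuronal beta tubulin, was lower by 2.65 ± 0.32 and 3.44 ± 0.34 on the log2 scale. Of 21 tested folding and modifying genes, the jerboa foot had 6 higher and 9 lower at P0 and 7 and 8 at P3. Map1b, a microtubule-binding protein of axons, had log2 ratios of -2.04 ± 0.10 and -2.03 ± 0.09 in jerboa. With age 7 of the 10 beta, gamma, delta and epsilon tubulins fell and 1 rose in jerboa foot (median log2 -0.64, all genes 0.05), where 47.3% of all genes passed. Among those that fell was Tubb2a, by 1.06 ± 0.10.

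Of 17 tested genes around proglucagon (of 27 in the files), the jerboa foot had 10 higher and 0 lower at P0 (median log2 ratio 1.23), and 11 and 3 at P3 (median 1.01), where 65.9% and 67.9% of all genes passed. In mouse 8 were higher and 6 lower at P0 (median 0.02) and 7 higher and 1 lower at P3 (median 0.67), where 59.0% and 52.5% of all genes passed. Pcsk1, the convertase that makes glucagon-like peptides, stood at 14.8 ± 2.45 CPM in the foot and 13.1 ± 1.33 CPM in the forelimb of jerboa at P0 (adjusted p 0.32). At P3 it was at 25.6 ± 1.13 and 11.0 ± 1.26 CPM (log2 ratio 1.23 ± 0.14), and it rose with age in jerboa foot by 0.79 ± 0.14 (adjusted p 7e-05). Mouse Pcsk1 was also higher in foot, by 1.62 ± 0.22 and 1.95 ± 0.21 on the log2 scale. Scg5, a chaperone of the islet convertase, was higher in foot by 1.59 ± 0.15 and 1.26 ± 0.15 in jerboa and by 0.88 ± 0.15 and 2.10 ± 0.16 in mouse.

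Sct, which encodes the related hormone secretin, was higher in foot in both species, by 3.95 ± 0.33 and 5.02 ± 0.45 in jerboa and 2.65 ± 0.14 and 3.73 ± 0.16 in mouse on the log2 scale. In jerboa foot it fell with age by 0.79 ± 0.22, a call lost under limma voom (adjusted p 0.05), while Gcg did not pass. Dpp4, the protease that inactivates glucagon-like peptides, had log2 ratios of 0.26 ± 0.16 and -0.06 ± 0.14 in jerboa, neither of which passed (adjusted p 0.17 and 0.74). It was lower in mouse foot, at -2.02 ± 0.16 and -1.22 ± 0.14. Fap, a related protease of activated fibroblasts, stood at 512 ± 33.1 CPM in the foot and 170 ± 22.3 CPM in the forelimb of jerboa at P0. Its log2 ratio was 1.59 ± 0.09 and 1.73 ± 0.09 in jerboa and -0.70 ± 0.09 and 0.06 ± 0.09 in mouse, the last of which did not pass (adjusted p 0.56). The species differed by 2.29 ± 0.13 and 1.67 ± 0.12 (adjusted p 1.4e-12 and 9.2e-11).

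**Figure D4:**
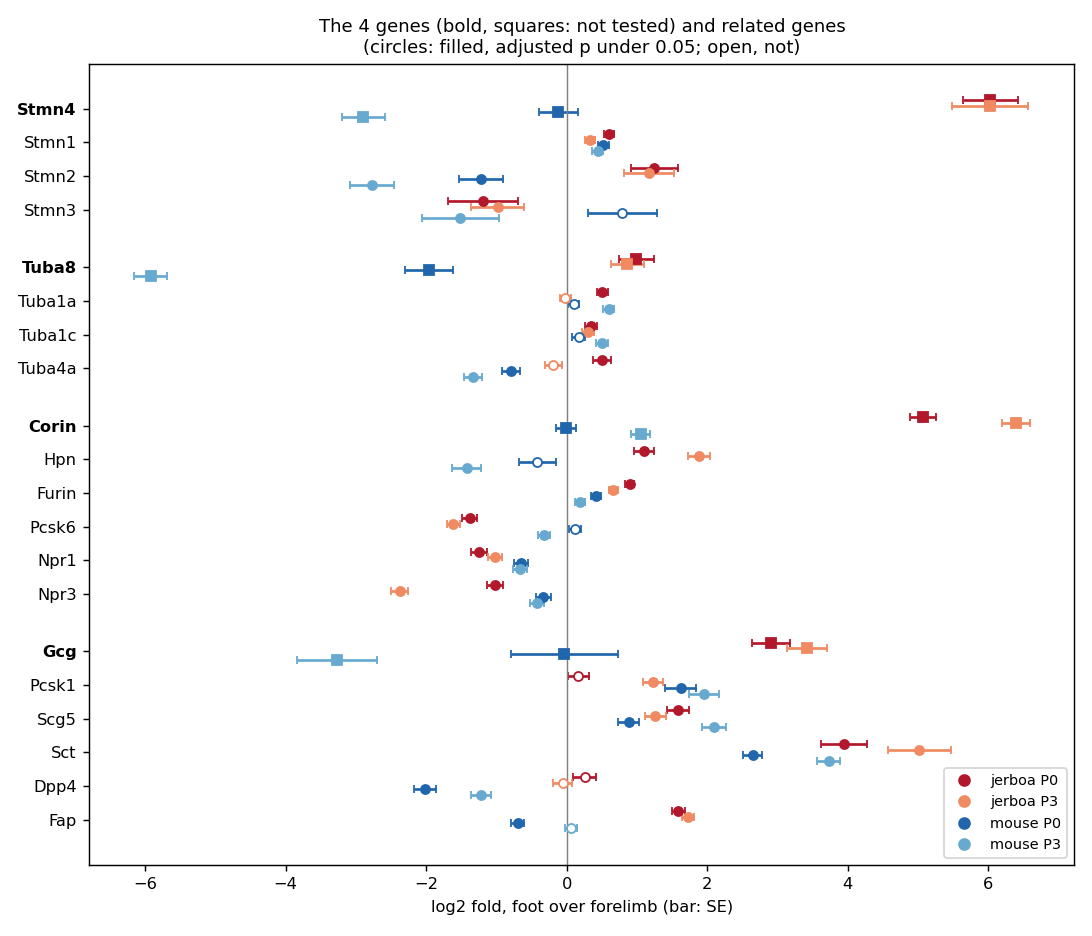
Log2 fold of foot over forelimb for the 4 genes (squares, not tested) and 16 related genes (circles, filled where the adjusted p was under 0.05), with bars of SE, in jerboa and mouse at P0 and P3. Stmn2 lies above 0 in jerboa and below 0 in mouse as Stmn4 does at P3, and Npr1 and Npr3 lie below 0 in all 4 comparisons, unlike Corin.

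Fap and Dpp4 are also chromosomal neighbours of Gcg in mouse, and Ptk2b is one of Stmn4. Ptk2b, a calcium-regulated kinase, was higher in jerboa foot by 2.67 ± 0.28 at P0 and 1.75 ± 0.28 at P3 on the log2 scale. In mouse its log2 ratio was -0.24 ± 0.27 (adjusted p 0.46) and -0.92 ± 0.26, and the species differed by 2.91 ± 0.39 and 2.67 ± 0.38 (adjusted p 1.3e-06 and 2.6e-06). The other neighbours of Stmn4 were not higher in jerboa foot. At P0 and P3 the log2 ratios were -0.207 and -0.115 for Trim35, -0.74 and -0.49 for Adra1a, and -0.13 and -0.41 for Dpysl2. Of these only Dpysl2 at P3 passed (adjusted p 0.00013). Commd8 and Nfxl1, neighbours of Corin in mouse, were at 27.7 ± 2.34 and 30.8 ± 3.80 CPM in jerboa foot at P0 and 32.0 ± 2.80 and 29.1 ± 1.30 CPM in its forelimb. Nfxl1 had a log2 ratio of 0.08 ± 0.09 there (adjusted p 0.43) and was higher in jerboa foot at P3, by 0.91 ± 0.09 (adjusted p 2.2e-09). Commd8 was at -0.21 ± 0.08 at P0 (adjusted p 0.03, lost in DESeq2 at 0.083 and without library 1 or 2 of foot or library 1 or 3 of forelimb at 0.067 to 0.14) and 0.38 ± 0.08 at P3 (adjusted p 2e-04). Atp10d, the next neighbour, was lower in jerboa foot, at -1.37 ± 0.21 and -1.38 ± 0.18. Mical3 and Slc6a13, neighbours of Tuba8, were lower in jerboa foot, by 1.80 ± 0.08 and 1.74 ± 0.08 for Mical3 and 2.67 ± 0.13 and 1.85 ± 0.12 for Slc6a13 on the log2 scale. In a RefSeq annotation of the jerboa assembly mJacJac1, Stmn4 also lies between Adra1a and Trim35 with Ptk2b next, and Tuba8 between Pex26 and Usp18. Gcg lies there between Ifih1 and Dpp4. No gene with the symbol Corin was found in that annotation, so its jerboa neighbours are not given.

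Over the 8 group means, centred within each species, the genes nearest to Corin among 13504 were Cma1, Tbx4 and Acan (root mean square log2 difference 0.50, 0.61 and 0.61). Those nearest to Stmn4 were Car7, Gm19410 and Etv2 (0.77, 0.80 and 0.90). For Gcg they were Ddn, Chrdl2 and Igsf21 (0.49, 0.49 and 0.55), and for Tuba8 they were Adipoq, Mapt and Plin1 (0.60, 0.66 and 0.69). Cma1 is a protease of mast cells, Tbx4 a hindlimb transcription factor and Acan a proteoglycan of cartilage. Adipoq and Plin1 are fat cell genes, and Mapt encodes the microtubule-binding protein tau.

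Mast cell genes stood beside Corin in jerboa foot. Cma1 was at 21.4, 9.94 and 15.9 CPM in jerboa foot at P0 and 30.9, 28.7 and 56.4 CPM at P3, against 0.608 to 1.26 CPM in the 6 jerboa forelimb libraries. Cpa3, another mast cell protease, was at 27.1, 11.5 and 19.4 CPM and 41.6, 29.8 and 69.4 CPM in jerboa foot. Of 6 tested mast cell markers, a list added after the values were seen, the jerboa foot had 4 higher and 2 lower at P0 and 4 and 1 at P3, and 5 rose there with age, beside 65.9%, 67.9% and 47.3% of all genes. Cma1 was found by its likeness to Corin over these same group means, so these mast cell counts are a description with no test. The summed level of the markers was 27.1 to 58.3 CPM in jerboa foot at P0 and 71.8 to 144 CPM at P3, against 9.92 to 11.9 and 13.6 to 14.5 CPM in jerboa forelimb. In mouse the sum was 176 to 248 and 150 to 169 CPM in foot and 247 to 320 and 87.0 to 126 CPM in forelimb. In jerboa foot the first library at P0 was the highest of its group for both Corin (45.7 CPM) and Cma1 (21.4 CPM). The third library at P3 had the lowest Corin (54.1 CPM) and the highest Cma1 (56.4 CPM). The part of mast cells in the Corin values was not tested.

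Markers of the cells for which Corin is known gave mixed values. Of 12 dermal papilla markers, the jerboa foot had 7 higher and 4 lower at P0 and 6 and 4 at P3 (65.9% and 67.9% of all genes passed), with summed levels of 446 to 486 and 422 to 497 CPM in foot and 187 to 203 and 174 to 183 CPM in forelimb. In mouse that sum was 189 to 221 and 243 to 258 CPM in foot and 177 to 193 and 197 to 202 CPM in forelimb. Of 8 tested keratinocyte markers, the jerboa foot had 4 higher and 0 lower at P0 and 5 and 1 at P3, beside the same shares. Their sum was 89.3 to 137 and 60.2 to 81.5 CPM in jerboa foot, 17.0 to 19.9 and 20.4 to 29.5 CPM in jerboa forelimb, and 13.1 to 17.8 CPM in all mouse groups. Dsp, a desmosome gene, was at 86.5 ± 18.3 CPM in the foot against 8.96 ± 1.66 CPM in the forelimb of jerboa at P0, and Trp63 at 15.8 ± 2.86 and 2.32 ± 0.185 CPM. The epidermal keratins Krt10 and Krt14 were at 1.35 ± 0.658 and 0.233 ± 0.147 CPM in that foot, against 1.80 ± 0.161 and 0.202 ± 0.105 CPM. Of 9 tested heart markers, the jerboa foot had 1 higher and 2 lower at P0 and 2 and 5 at P3, beside the same shares. The 12 on the list summed to 7360 to 8010 and 3320 to 3700 CPM in jerboa foot. In jerboa forelimb they summed to 7200 to 8750 and 5490 to 6410 CPM. Among them, Nppa and Myl7 gave 0 reads in jerboa foot at both ages and in jerboa forelimb at P0. The part of skin cells in these values was not tested.

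Fat cell genes and tau stood beside Tuba8 in mouse forelimb at P3. Adipoq gave 604 reads there, at 1.92, 5.003 and 4.83 CPM, against 3 reads in mouse forelimb at P0 and 7 in mouse foot at P3. Plin1 had a log2 value of 5.15 ± 0.43 for P3 against P0 in mouse forelimb and Mapt one of 3.34 ± 0.28, given with no test because these genes were found by their likeness to Tuba8. Mapt was also lower in mouse foot at P3, with a log2 ratio of -4.67 ± 0.31, and did not pass in jerboa foot (-0.48 ± 0.26 and -0.46 ± 0.24, adjusted p 0.11 and 0.096). Without the third jerboa foot library of either age it did pass, at -0.87 for P0 (adjusted p 0.0074) and -0.69 for P3 (adjusted p 0.024). Mapt was found over these same group means, so its p-values are not independent of that choice. Of 9 fat cell markers, a list added after the values were seen, all 9 were lower in mouse foot at P3. In mouse forelimb 8 rose with age. Of all genes, 52.5% and 51.4% passed in these comparisons. The list holds Adipoq, which was found by its likeness to Tuba8, so these counts are a description with no test. The summed level of the markers was 921 to 1030 CPM in mouse forelimb at P3, 513 to 575 CPM at P0, and 161 to 183 and 379 to 414 CPM in mouse foot. In jerboa it was 71.8 to 124 and 107 to 114 CPM in foot and 453 to 603 and 614 to 651 CPM in forelimb. The first mouse forelimb library at P3 was the lowest of its group for Tuba8, Adipoq and Plin1 and the highest for Mapt (7.56 CPM, against 6.77 and 7.47 CPM). The part of fat cells in the Tuba8 values was not tested.

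**Figure D5:**
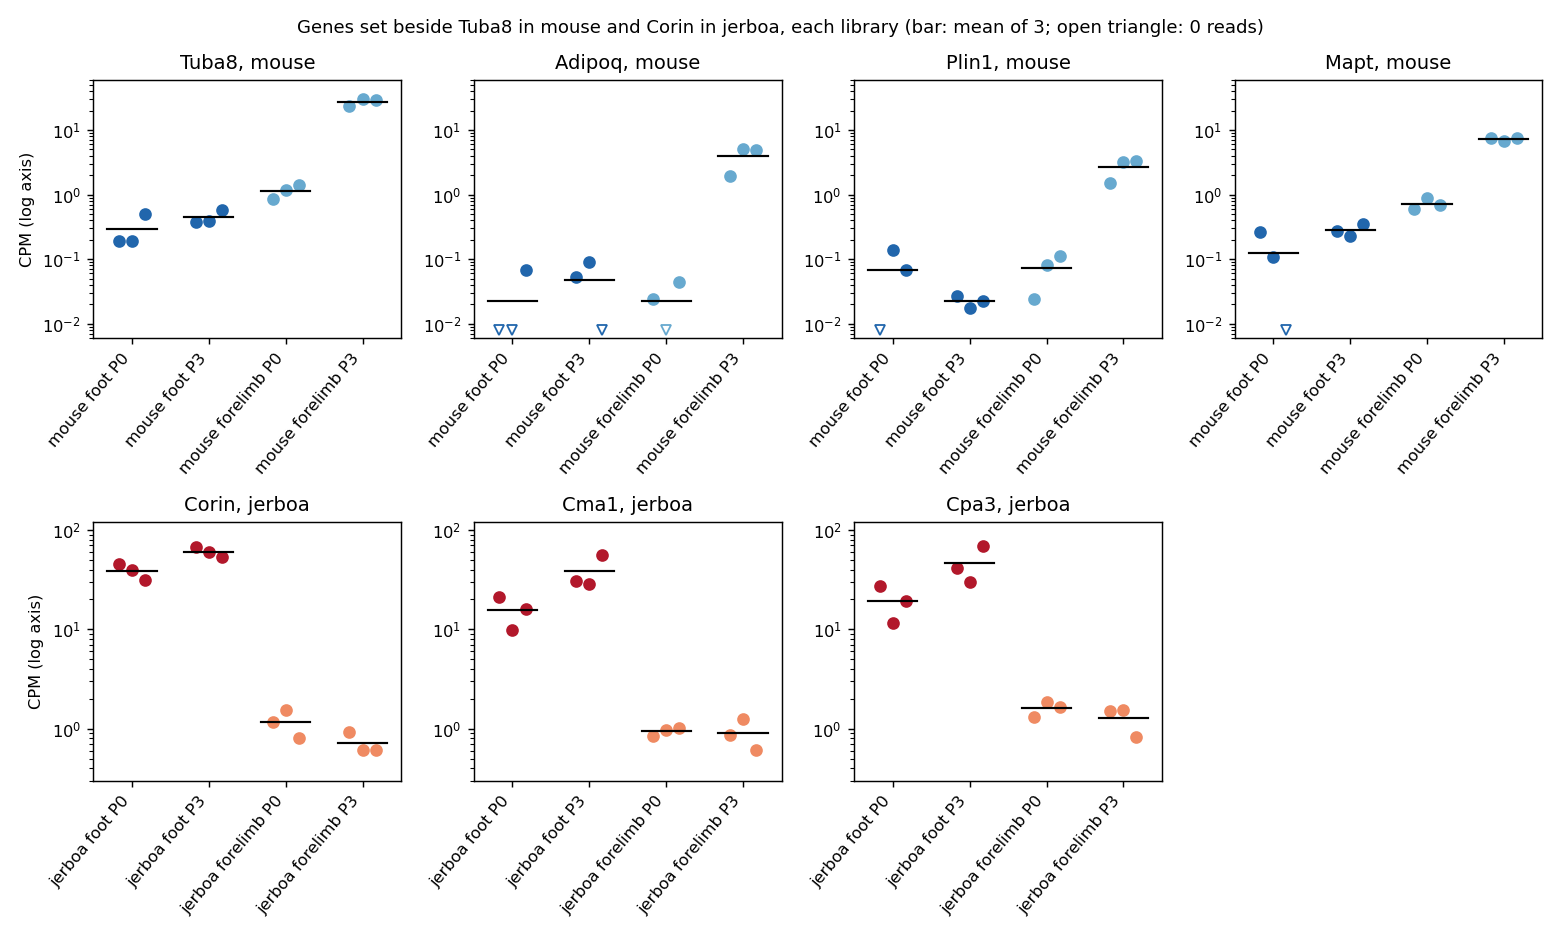
Level in each library, in CPM on a log axis, of Tuba8, Adipoq, Plin1 and Mapt in the mouse groups (top) and of Corin, Cma1 and Cpa3 in the jerboa groups (bottom); bars are means of 3 libraries and open triangles are libraries with 0 reads. The top genes are highest in mouse forelimb at P3 and the bottom genes are high in jerboa foot at both ages.

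More neuron markers were higher than lower in the foot of both species, and islet markers were mixed in jerboa foot. The 16 neuron markers summed to 61.0 to 64.2 CPM in jerboa foot at P0 and 53.5 to 58.0 CPM at P3, against 42.1 to 44.1 and 33.2 to 36.9 CPM in jerboa forelimb. Of 14 tested, 9 had a higher and 2 a lower level in the jerboa foot at P0, and 10 and 2 at P3, where 65.9% and 67.9% of all genes passed. Their median log2 ratio in jerboa was 0.96 at P0 and 1.1 at P3. In mouse foot 5 were higher and 2 lower at P0 (median 0.46), and 6 and 3 at P3 (median 0.85). Of all genes, 59.0% and 52.5% passed there. In mouse the sum was 79.6 to 85.6 and 65.3 to 69.9 CPM in foot and 58.1 to 69.1 and 66.9 to 70.6 CPM in forelimb, while Stmn4 was lower in mouse foot at P3. The neuronal RNA-binding genes Elavl3 and Elavl4 gave 3 and 19 reads in jerboa foot at P0, where Stmn4 gave 698. In jerboa forelimb they gave 2 reads each at P0. At P3 Elavl4 gave 43 reads in jerboa foot and 2 in jerboa forelimb. Of the neurofilament genes, Nefl was at 20.3 ± 2.79 CPM in the foot against 11.2 ± 1.58 CPM in the forelimb of jerboa at P0, and Nefm at 9.99 ± 1.42 and 11.0 ± 2.64 CPM. The synaptic gene Snap25 gave 47 reads in that foot and 15 in that forelimb at P0, and 173 and 8 at P3. The islet transcription factor Neurod1 gave 0 reads in every group, and Pcsk2 gave 0 in jerboa foot at P3, where Gcg gave 1076. Pcsk1 and Scg5, which the list also holds, were present, with Scg5 at 15.9 ± 1.04 CPM in the foot against 6.63 ± 0.665 CPM in the forelimb of jerboa at P3. The 10 neuroendocrine and islet markers summed to 34.2 to 47.6 and 41.6 to 45.0 CPM in jerboa foot and 24.5 to 25.1 and 20.4 to 25.0 CPM in jerboa forelimb. In mouse they summed to 22.4 to 25.5 and 22.1 to 28.1 CPM in foot and 12.2 to 13.1 and 10.3 to 11.3 CPM in forelimb. Of 6 tested, 2 had a higher and 1 a lower level in the jerboa foot at P0, and 2 each way at P3, beside 65.9% and 67.9% of all genes. In mouse foot 3 of them were higher and 1 lower at P0, and 4 and 0 at P3, beside 59.0% and 52.5%. Of 10 Schwann cell markers, the jerboa foot had 1 higher and 6 lower at P0, and 1 and 8 at P3. Mouse foot had 3 and 1 at P0, and 2 and 6 at P3, beside the same shares for each species. The part of neurons or endocrine cells in the Stmn4 and Gcg values was not tested.

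Reads on the strand opposite to the counted one, a readout that the choice of genes did not use, were few. Corin had 32 such reads in jerboa foot at P0, or 1.59% of its strand-assigned reads (exact binomial 95% interval 1.09% to 2.24%), and 15 at P3, or 0.299% (0.168% to 0.493%). In mouse Corin had 0.693% to 0.913% in the 4 groups. Over all features the counted strand held 99.6% of strand-assigned reads in each jerboa foot library at P0 and 99.5% to 99.6% at P3. In the mouse libraries it held 98.4% to 98.8%. The opposite-strand share of Corin was thus above that of all features in jerboa foot at P0 and below it in mouse, which was not tested. For Stmn4, Gcg and Tuba8 the opposite strand held 0 or 1 read in every group. Tuba8 in mouse forelimb at P3 had 0 beside 4193 counted reads, which allows up to 0.0879%.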

How the data were processed

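The deposited files hold raw read counts per feature, whole numbers without normalization, with 1 column for both strands together and 1 for each strand. The strand that held nearly all reads was used as the count. STAR is named, without a version, per the submitters' processing notes, with the genome builds, annotations and kit not given in the sources used here. Per the labels, P0 files came from trimmed reads and P3 files from untrimmed ones. Symbols came from GENCODE M21.

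All 24 libraries entered 1 quasi-likelihood model of 8 group means (edgeR 4.0.16 under R 4.3.3, scaled by TMM, low genes removed by filterByExpr). It tested 14448 genes on 16 residual degrees of freedom, with Benjamini-Hochberg adjustment over all of them and a threshold of 0.05. Libraries of the same number were not used as pairs. On simulated counts for P3 against P0 in jerboa foot (14086 genes), the share recovered was 66.7% at 1.5-fold, 83.0% at 2-fold and 94.0% at 4-fold.

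The 4 genes and all lists were chosen with earlier results of these data known, and the fat and mast cell lists after the values were seen. Other genes were named from the pathway lists (up to 4 a list and comparison by smallest p, then followed across comparisons), from the 3 nearest patterns, 2 neighbours a side, and marker lists. Mast cell Cpa3, neuronal Elavl3 and Elavl4, and the islet and heart markers at 0 were named outside that rule, after their values were seen. Npr2, Prkg2 and Pde9a were named because their levels went the other way from Npr1. Alternatives were other scalings and filters, DESeq2 1.42.0, limma voom (limma 3.58.1), other sets of libraries, either strand, a replicate block and each library left out.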

Additional observations from a re-analysis of the deposited data

Results flagged for a closer look

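In 7 cases every library of one comparison moved one way and every library of a like comparison moved the other way. None of these differences was tested, and the foot to forelimb cases follow from how the genes were picked. In mouse, Corin changed with age by 0.56 in foot and -0.50 in forelimb on the log2 scale, and Stmn4 by -1.93 in foot and 0.85 in forelimb. Stmn4 also changed with age by -1.82 in jerboa forelimb, over 18 and 5 reads, against 0.85 in mouse forelimb. For foot against forelimb at P3 the log2 values were 6.02 in jerboa and -2.89 in mouse for Stmn4, and 3.42 and -3.27 for Gcg. For Tuba8 they were 0.99 in jerboa and -1.96 in mouse at P0, and 0.87 and -5.92 at P3.

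For 12 other genes, and not for every gene named above, the difference between species in the log2 ratio of foot to forelimb follows. It is given where its adjusted p was under 0.05. Of all genes, 48.6% had such an adjusted p at P0 and 49.0% at P3. The difference was 1.52 at P0 and 3.31 at P3 for Hpn, 2.46 and 3.95 for Stmn2, and 1.29 and 1.15 for Tuba4a. It was 2.29 and 1.67 for Fap, 2.91 and 2.67 for Ptk2b, and -1.50 and -1.29 for Pcsk6. It was 2.27 and 1.16 for Dpp4, -1.43 and -0.88 for Mical3, and -2.47 and -2.33 for Slc6a13. At P3 it was -1.96 for Npr3, 4.21 for Mapt and 0.45 for Commd8. For Commd8 the adjusted p at P0 was 0.26. The P0 values of Npr3 and Mapt are left out here whatever their adjusted p, so nothing follows from their absence. Mapt was found by its likeness to Tuba8, so its value is a description with no test.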

How the results depend on the processing

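The 8 age values of Corin, Stmn4, Gcg and Tuba8 past the threshold kept their direction and stayed past it under all alternatives run. Those of Stmn4, Gcg and Tuba8 in mouse forelimb remain a description with no test. The direction of the foot to forelimb values was kept where the main value lay outside its SE. Of the other 8 age values, the log2 value of Corin in jerboa forelimb was -0.674 under DESeq2 and -0.674 with a replicate block (adjusted p 0.028 and 0.036), past the threshold, and that of Stmn4 there was -1.895 under DESeq2 (adjusted p 0.036). The block changed no other call on the 4 genes. None of the 8 comparisons had all correlations of same-numbered libraries over 0.1 (range -0.086 to 0.115 over 24 pairs). With 3 libraries a group these values cannot show whether foot and forelimb libraries of the same number came from 1 animal. Comparisons of P3 against P0 set different ages side by side and cannot bear on that. With 1 library left out at a time, Corin in jerboa forelimb ranged from -0.905 to -0.43 and Tuba8 in mouse foot from 0.341 to 1.223. Values that changed sign were Gcg in jerboa foot (-0.288 to 0.171, reversed at 0.061 too), Tuba8 in jerboa forelimb (-0.335 to 0.215, and 0.052), Stmn1 in jerboa foot (-0.059 to 0.011), Tuba4a in jerboa forelimb (-0.258 to 0.009) and Hpn in mouse foot (-0.186 to 0.194, and -0.011), all with age. Foot to forelimb values that changed sign were Dpp4 in jerboa at P3 (-0.195 to 0.057), Nfxl1 in jerboa at P0 (-0.022 to 0.152), and in mouse at P0 Corin (-0.113 to 0.076) and Gcg (-0.415 to 0.539). None of those tested passed in the main test.

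Opposite-strand shares that rest on a single read went to 0% without its library. They ranged to 2.78% for Corin in jerboa forelimb at P3, 0.19% for Stmn4 in jerboa foot at P0, 0.568% and 0.426% for Stmn4 in mouse foot and forelimb at P0, 1.1% and 0.15% for Gcg in jerboa forelimb at P0 and foot at P3, and 0.909% for Tuba8 in jerboa forelimb at P0. A stricter filter on low counts, which tests fewer genes, left 3 called membrane proteases in place of 7 in jerboa foot at P0 and 2 in place of 4 in mouse foot at P3. For beta, gamma, delta and epsilon tubulins in mouse foot at P0 the count went from 8 to 5 without the first foot or the second forelimb library. Depth limits Gcg in mouse and Stmn4 in jerboa forelimb, with 5 to 18 reads a group in most of these.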
